A study of Mus musculus with 2 samples.

Results

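The 10 genes described here are Naip sensors, inflammasome genes and gasdermins, measured in pancreatic islets of 2 mouse strains. They comprise the sensors Naip1, Naip2, Naip5 and Naip6, their partner Nlrc4, the inflammatory caspases Casp1 and Casp4, the cytokine Il18, and the pore-forming gasdermins Gsdmd and Gsdma3. They were taken by symbol from the 38924 gene IDs listed for both libraries, after summing the transcripts of each gene, and the summed Naip counts were added as a further value. The choice was made with the strain ratios of these genes known, so the ratios below are a description and carry no test. Of the 10 genes, 7 had at least 100 counts over both libraries together, the minimum for counting a gene as different; Naip1, Naip6 and Nlrc4 fell below it.

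RNA was sequenced from islets of male C57BL/6J (B6) mice, the inbred laboratory strain whose genome is the mouse reference, and of male CAST/EiJ (CAST) mice, inbred from wild-caught animals of the subspecies Mus musculus castaneus. All mice were 10 weeks old and untreated as far as the labels say, and no mutant allele or transgene is named for either strain. Islets of 2 mice per strain were pooled and 250 islets of each pool were used, so that each strain is 1 library, of 76600903 expected counts in B6 and of 104324631 in CAST. With 1 library per strain there is no spread between animals, so strain cannot be told apart from pool, isolation or library.

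The NAIP proteins are cytosolic sensors of bacterial proteins. Each binds parts of bacterial flagella or of the needle-like secretion systems through which bacteria inject proteins into host cells, and a bound NAIP opens NLRC4, which assembles into a wheel-shaped complex, the inflammasome. The complex activates caspase-1, which cuts the precursor of the cytokine interleukin-18 and frees the pore-forming part of gasdermin D, so that the cell membrane opens and the cell can die by pyroptosis. Caspase-4 of mice, also called caspase-11, enters the same route when it binds bacterial lipopolysaccharide. In islets, resident macrophages express inflammasome genes, and interleukin-1 is known to act on beta cells.

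The libraries carried the label of islets in their markers. The 7 beta cell markers, Ins1 and Ins2 among them, summed to 461000 TPM in B6, a level corrected for transcript length and library size, and 535000 in CAST. Markers of other cells were present as well. Acinar markers summed to 3320 TPM in B6 and 10000 in CAST, 5 of 7 genes being higher by 2-fold or more in CAST. The other 2, Bhlha15 and Ptf1a, were 1.12-fold and 1.35-fold higher in CAST. Of 6 fibroblast and stellate markers, 5 were at least 2-fold higher in CAST. Over all genes with at least 100 counts, 7.18% were at least 2-fold higher in CAST.

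Naip2 had the largest difference among the sensors. It was the most abundant of the 10 genes in B6 and close to undetected in CAST, whereas Naip5 was moderately lower in CAST and Naip1 and Naip6 were rare in both strains. Of the 2 gasdermins, Gsdma3 was listed at 0 in B6 and was the most abundant of the 10 genes in CAST. Casp4 was higher in CAST, and Casp1, Il18 and Gsdmd differed by less than 2-fold. Of the 7 genes with at least 100 counts, CAST had the higher level by 2-fold or more in 2 and B6 in 2. Over all 14768 genes with as many counts, 13.2% differed by at least 2-fold, 7.18% being higher in CAST and 5.99% higher in B6; since the genes were chosen on this comparison, nothing is read from the difference between these shares. The median log2 ratio of the 7 genes was 0.19, beside 0.02 over all genes.

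**Figure D1:**
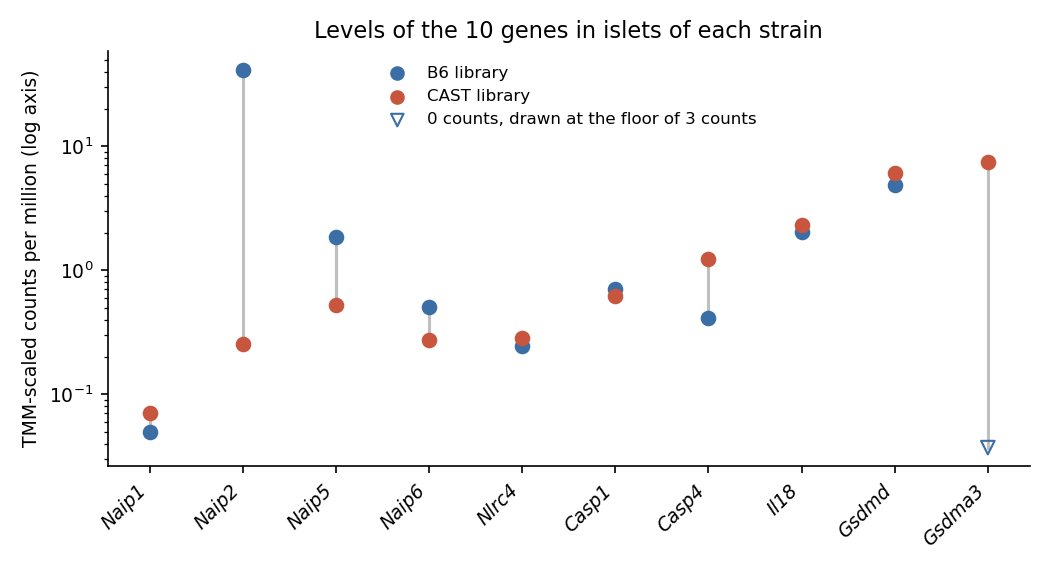
Level of each of the 10 genes in TMM-scaled CPM, counts corrected for library size and composition (log axis), with 1 point per library and a grey line joining the strains; the open triangle stands for 0 counts, drawn at the floor of 3 counts. Naip2 spans 41.5 in B6 to 0.253 in CAST, and Gsdma3 lies at 7.52 in CAST and at the floor in B6.

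The 4 Naip genes are close copies that lie side by side on chromosome 13 (GRCm38), within 308807 bases and all on the minus strand: Naip2 at chr13:100144063-100202092, Naip5 at chr13:100211739-100246323, Naip6 at chr13:100281121-100317674 and Naip1 at chr13:100407764-100452869. Their coding sequences were identical at 97.0% of aligned bases between Naip5 and Naip6, at 91.9% between Naip1 and Naip5, and at 90.3%, 89.8% and 89.5% between Naip2 and Naip1, Naip5 and Naip6. Reads can be assigned to one copy only where the copies differ. The start of the coding sequence is shown because it is a place where Naip2 stands apart: the 60 bases are coding bases 4 to 63 of GENCODE M21 transcripts, 5′ to 3′, and capitals mark the 22 positions at which Naip2 differs from all of the other 3 genes.
Naip1: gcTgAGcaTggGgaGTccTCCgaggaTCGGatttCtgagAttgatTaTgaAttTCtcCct
Naip2: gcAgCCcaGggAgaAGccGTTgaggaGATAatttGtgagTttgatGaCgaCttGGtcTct
Naip5: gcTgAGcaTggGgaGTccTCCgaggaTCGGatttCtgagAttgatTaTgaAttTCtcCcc
Naip6: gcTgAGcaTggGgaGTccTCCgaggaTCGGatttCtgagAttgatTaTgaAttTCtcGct
These stretches lie at chr13:100444675-100444734 in Naip1, chr13:100189336-100189395 in Naip2, chr13:100246137-100246196 in Naip5 and chr13:100316489-100316548 in Naip6, in exon 2 of 15 of Naip1 and Naip2 and in exon 1 of 14 of Naip5 and Naip6. Over this window Naip1, Naip5 and Naip6 differ from one another at the last bases only. In other stretches the copies cannot be told apart. Their longest run of identical bases, 78 bases at chr13:100161704-100161781 of Naip2, on the minus strand, falls in coding bases 1746 to 1823.
Shared run: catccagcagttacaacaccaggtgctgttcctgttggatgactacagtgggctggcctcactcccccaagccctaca
In all, 85.2% of the aligned coding columns were the same in the 4 genes. Of the 50-base windows of each gene's longest transcript, 19.3% of those of Naip2, 21.3% of Naip6, 31.9% of Naip1 and 36.7% of Naip5 also occurred in another annotated gene. At 100 bases the share fell to 4.45% in Naip2 and 15.7% in Naip5. RSEM, the authors' quantifier, divides reads that match several transcripts, and all 4 Naip genes carried expected counts that were not whole numbers in both libraries, to a tolerance of 0.005.

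Naip2, the sensor of the inner rod protein of bacterial secretion systems, had 3358 counts in B6 and 25 in CAST. Its level was 11.1 TPM in B6, at or above that of 68.9% of genes with any count, and 0.0567 TPM in CAST, at or above that of 18.1%. The log2 ratio of CAST over B6 was -7.33, with a 95% counting interval of -7.99 to -6.79, which is a level 161-fold higher in B6. Intervals of this kind were derived from the exact Clopper-Pearson interval for the share of a gene's counts that CAST held, and cover counting error only. In order of log2 ratio from the lowest, Naip2 was at place 9 of 14768 genes. The protein-coding genes next to it in that order were Gm14440, with 509 counts in B6 and 0 in CAST, Hist1h4m, a histone gene with 197 and 0, Adh1, an alcohol dehydrogenase with 7270 and 133, and Tgtp2, an interferon-induced GTPase with 508 and 10. Ratios as low as that of Naip2 were rare, since 1.34% of the 14768 genes reached even 4-fold higher in B6.

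Naip5, the flagellin sensor known for the susceptibility of some inbred strains to Legionella, had 150 counts in B6 and 52 in CAST. The level was 0.451 TPM in B6 and 0.101 in CAST, and the log2 ratio was -1.81 (interval -2.30 to -1.35), 3.5-fold higher in B6. On the TPM scale with 1 added, which shrinks the ratios of low genes, it was -0.40. Its 96.9% identical transcript partner Naip6, a second flagellin sensor, had 41 counts (0.0946 TPM) in B6 and 27 (0.0412 TPM) in CAST. Both genes were therefore well below 1 TPM in both strains. The log2 ratio of Naip6 was -0.88 (interval -1.65 to -0.16). Because this pair is the closest in coding sequence among the 4 sensors, the sum of the pair is also given: 191 counts in B6 and 80 in CAST. Its log2 ratio was -1.54 (interval -1.94 to -1.16). The lower level in CAST thus remained when the division of reads between the pair was taken out. Division with the other copies was not taken out by this sum: 9.53% of the 50-base windows of Naip2 also occurred in Naip5, and 14.5% of those of Naip5 in the neighbouring copy Naip3. How far Naip2 reads entered the counts of the pair was not tested.

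Naip1, the sensor of the needle protein of secretion systems, had 4 counts (0.0119 TPM) in B6 and 7 (0.0137 TPM) in CAST. Its log2 ratio of 0.45 had an interval from -1.46 to 2.74, so that no difference was detectable at this depth. Naip3, a neighbouring copy annotated as an unprocessed pseudogene, had 3 counts in B6 and 2 in CAST, with an interval of -4.46 to 2.25 about a log2 ratio of -0.77.

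Summed over the 4 sensors, Naip counts were 3553 in B6 and 112 in CAST, or 11.7 and 0.213 TPM. The log2 ratio of the sum was -5.27 (interval -5.56 to -5.00), 38.6-fold higher in B6. The sum does not change with the way in which reads are divided among these copies. Without Naip2 it was 195 counts in B6 and 87 in CAST, a log2 ratio of -1.45 (interval -1.84 to -1.08), so most of the difference in the sum was carried by Naip2. With the pseudogene Naip3 added, the log2 ratio was -5.25.

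The make-up of the Naip counts differed between the libraries. In B6, Naip2 made up 94.5% of the sum (Clopper-Pearson interval 93.7 to 95.2), Naip5 4.22%, Naip6 1.15% and Naip1 0.113%. In CAST, Naip5 was the largest share with 46.4% (interval 37.0 to 56.1), followed by Naip6 with 24.1% (16.5 to 33.1) and Naip2 with 22.3% (15.0 to 31.2), and Naip1 was at 6.25% (2.55 to 12.5). The intervals of Naip6 and Naip2 in CAST overlapped, so the order of these 2 was not resolved.

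**Figure D2:**
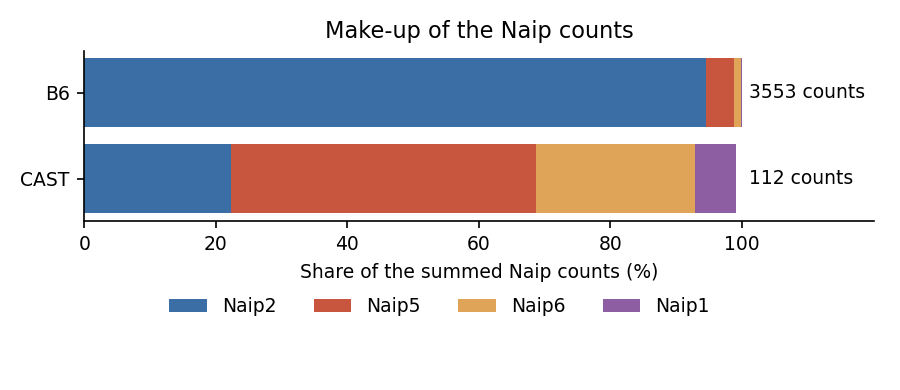
Share of each sensor in the summed Naip counts (percent) of the B6 and CAST libraries, with the sum beside each bar; each gene's counts were rounded, which leaves the CAST bar 1 count short of its sum. Naip2 fills 94.5% of the B6 bar and 22.3% of the CAST bar.

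The deposited files give each transcript separately. Naip2-201 held 74.4% of the Naip2 TPM in B6 and 49.9% in CAST. Naip2-202, which encodes the same coding parts but starts 4945 bases upstream with a different first exon, held 24.2% in B6 (827.48 expected counts) and was listed at 0 in CAST. Naip2-203, which also starts upstream, at position 100201961, and lacks the 168-base exon at chr13:100154855-100155022, held 1.47% in B6 and 50.1% in CAST. Its expected counts were 45.51 in B6 and 12.21 in CAST, and those of Naip2-201 were 2484.93 and 13.15. All 3 transcripts were thus lower in CAST, and of the 2 that start upstream only Naip2-202 was at 0 there. For Naip6, all 41.34 expected counts in B6 were given to Naip6-202 and all 27.43 in CAST to Naip6-201, transcripts with the same coding parts that differ in their first exons.

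Promoter sequences of 9 of the 10 genes were taken from RefSeq (GRCm38.p6), 250 bases before to 50 bases after the start. Gsdmd had no entry. Those of the 4 sensors are shown because the neighbouring copies differed in level in the same islets: Naip1 at chr13:100452815-100453114, Naip2 at chr13:100202073-100202372, Naip5 at chr13:100247287-100247586 and Naip6 at chr13:100316567-100316866, all on the minus strand, 5′ to 3′. Capitals mark a shared box, TGGANCCTTTAAGAGGNGGNGC, searched on both strands. It is the longest ungapped stretch of the Naip1, Naip2 and Naip5 promoters with at most 3 differing positions (N), and these genes were chosen after reading the sequences.
Naip1 promoter: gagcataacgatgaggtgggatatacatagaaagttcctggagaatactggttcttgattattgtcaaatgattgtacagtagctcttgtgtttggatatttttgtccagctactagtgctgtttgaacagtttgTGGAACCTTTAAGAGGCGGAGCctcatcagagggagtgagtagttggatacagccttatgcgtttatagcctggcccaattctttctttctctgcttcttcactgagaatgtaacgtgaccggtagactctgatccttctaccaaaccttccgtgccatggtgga
Naip2 promoter: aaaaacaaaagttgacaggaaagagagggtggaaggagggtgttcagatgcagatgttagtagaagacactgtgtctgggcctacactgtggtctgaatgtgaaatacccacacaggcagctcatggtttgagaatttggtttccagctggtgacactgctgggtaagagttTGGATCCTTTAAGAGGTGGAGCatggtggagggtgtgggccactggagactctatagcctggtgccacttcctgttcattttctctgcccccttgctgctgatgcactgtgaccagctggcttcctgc
Naip5 promoter: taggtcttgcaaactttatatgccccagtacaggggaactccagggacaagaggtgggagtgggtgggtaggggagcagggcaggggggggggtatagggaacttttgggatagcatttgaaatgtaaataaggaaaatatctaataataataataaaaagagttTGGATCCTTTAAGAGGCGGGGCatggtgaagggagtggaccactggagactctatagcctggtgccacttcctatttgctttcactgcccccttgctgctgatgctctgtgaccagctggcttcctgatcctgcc
Naip6 promoter: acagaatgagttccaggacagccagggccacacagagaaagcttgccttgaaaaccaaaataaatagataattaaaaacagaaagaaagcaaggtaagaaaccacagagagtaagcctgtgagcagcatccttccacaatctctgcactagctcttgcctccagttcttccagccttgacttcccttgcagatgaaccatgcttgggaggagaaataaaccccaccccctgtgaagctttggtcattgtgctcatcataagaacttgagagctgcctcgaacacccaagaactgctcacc
The box began at -115 in the promoter of Naip1, -78 in that of Naip2 and -85 in that of Naip5, counted from the start, and was not in that of Naip6. Of 32851 mouse promoters of this length, 0.00913% held it, which are these 3 alone. Because the box was taken from these 3 promoters, their matches were fixed in advance, and nothing is read from its rarity. The letters ACTTCCT, a core of ETS factor motifs, were found in the promoters of Naip2 and Naip5 and in 9.35% of all promoters, and TATAAA in those of Naip1 and Naip5 and in 13.6% of all. Among the other promoters read, that of Nlrc4 held 2 matches to ACTTCCT and that of Il18 1 match to TATAAA. Neither motif overlapped the box. The starts used by RefSeq are not those of every quantified transcript: Naip2-201, with 74.4% of the Naip2 TPM in B6, starts at position 100197147, Naip1-201 at 100446511 and Naip5-201 at 100246323, all outside the windows shown. Naip6-202, given all Naip6 counts in B6, starts at 100317674, also outside. The Naip6 window holds the start of Naip6-201 only, so the box was not searched for at the Naip6 start quantified in B6. A match describes these reference letters only, and the CAST sequence of these promoters was not used here.

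Genes on both sides of the Naip cluster were compared to see whether the difference extended beyond it. On one side, Bdp1, a subunit of an RNA polymerase III factor, had 3170 counts in B6 against 4488 in CAST (log2 ratio 0.21), and Serf1 had 336 and 440 (0.10). On the other, Gtf2h2, a subunit of the transcription and repair factor TFIIH, had 1175 and 1555 (0.12). The tight junction genes Ocln and Marveld2 were at log2 ratios of -0.65 and -0.41. All 6 nearest protein-coding genes, of which 1 is not named here, were within 2-fold between the libraries.

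**Figure D3:**
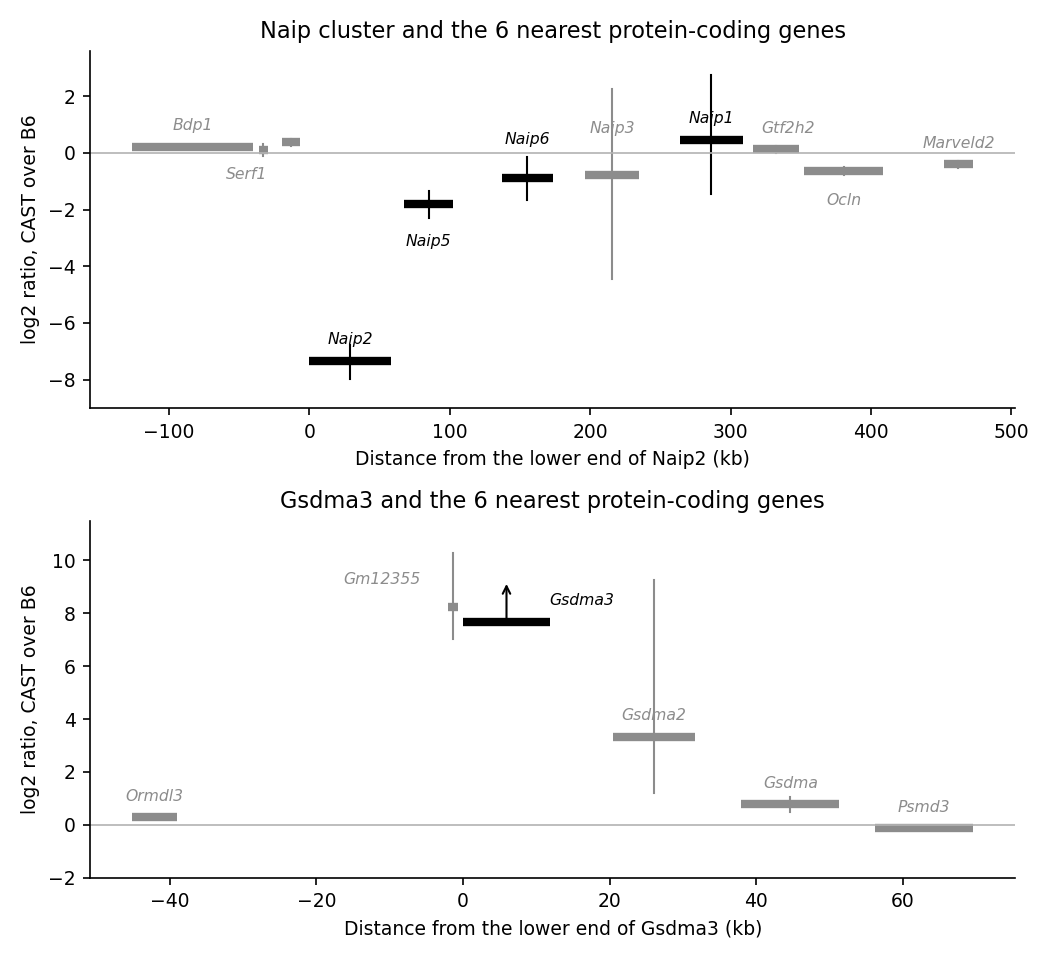
Log2 ratio of CAST over B6 (vertical axis) of the genes along chromosome 13 around the Naip cluster and along chromosome 11 around Gsdma3, against distance in kilobases from the lower end of Naip2 or of Gsdma3; thick bars span each gene, thin lines are 95% counting intervals, black marks the described genes, and 1 gene is drawn without a name. Naip2 at -7.33 lies below neighbours that are all within 2-fold, and the arrow on Gsdma3 marks a lower bound.

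Downstream of the sensors, the partner and the caspase of the inflammasome were scarce in both strains. Nlrc4 (chr17:74425438-74459142), the adaptor that NAIPs open, had 20 counts (0.0822 TPM) in B6 and 28 (0.0741 TPM) in CAST. Its log2 ratio of 0.19 had an interval of -0.68 to 1.10. Casp1 (chr9:5298517-5307265), the protease of the inflammasome, had 57 counts (0.621 TPM) in B6 and 61 (0.428 TPM) in CAST, with a log2 ratio of -0.19 (interval -0.74 to 0.36). Neither gene differed between the libraries beyond counting error. In B6, Naip2 was at a TPM far above that of its partner Nlrc4; in CAST both were below 0.1 TPM.

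Casp4 (chr9:5308828-5336783), the lipopolysaccharide-binding caspase that lies next to Casp1, had 33 counts in B6 and 122 in CAST. The level was 0.382 TPM in B6 and 1.06 in CAST, and the log2 ratio was 1.58 (interval 1.03 to 2.20), 2.99-fold higher in CAST; on the TPM scale with 1 added it was 0.58, under 2-fold. The pair of neighbouring caspases thus had different ratios, with intervals that did not overlap. The coding transcript Casp4-201 held 59.3% of the Casp4 TPM in B6 and 60.2% in CAST, and the retained-intron transcript Casp4-202 held 25.6% and 8.48%. Expected counts of Casp4-201 were 19.88 in B6 and 86.93 in CAST, so the difference was present in the coding transcript.

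Il18 (chr9:50554827-50581840), which encodes the cytokine precursor, had 164 counts (4.07 TPM) in B6 and 228 (3.64 TPM) in CAST. The log2 ratio was 0.19 (interval -0.11 to 0.48). All counts of both libraries were given to Il18-202, which differs from the equally long Il18-201 in a 12-base exon. The gene Bco2 overlaps Il18 on the opposite strand, with 278 and 970 counts, but shares no annotated exon bases with it. Among the 10 genes, Il18 and Gsdmd were those at 1 TPM or more in both libraries.

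Gsdmd (chr15:75862327-75867408), the pore former that caspase-1 and caspase-4 cut, had 393 counts (3.58 TPM) in B6 and 598 (3.51 TPM) in CAST. The log2 ratio was 0.32 (interval 0.13 to 0.50), a 1.24-fold difference. On the TPM scale Nlrc4, Il18 and Gsdmd had ratios of -0.01, -0.13 and -0.02, against a median of -0.26 over all genes on that scale. All 3 thus lay above that median. At 0.0822 and 0.0741 TPM, adding 1 leaves Nlrc4 almost no ratio, so its place there was fixed by its low level. With TMM factors the median over all genes was 0.02. The counting intervals of Nlrc4 and Il18 held that value, and that of Gsdmd lay above it.

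Gsdma3 (chr11:98626360-98638226, plus strand), a gasdermin known from skin, where mutations cause hair loss in mice, had 0 counts in B6 and 743 in CAST. Its level in CAST was 5.15 TPM, at or above that of 60.3% of genes with any count. Against a floor of 3 counts in the B6 library it was at least 203-fold higher in CAST. Transcript Gsdma3-201 held 67.1% of the TPM in CAST and Gsdma3-202, which lacks a 27-base exon, 32.9%, so both annotated coding transcripts were present. Squamous epithelium is a tissue that expresses gasdermin A genes, and its 7 markers summed to 6.82 TPM in B6 and 4.98 in CAST. Its basal keratins Krt5 and Krt14 were at 0 in both libraries, while Krt10 had 589 counts in B6 and 653 in CAST, Krt1 230 and 334, and Lor 87 and 59. In all, 3 markers were at 0 in B6 and 2 in CAST.

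Gsdma3 has close relatives beside it, Gsdma2 and Gsdma, with coding identities of 89.4% and 90.7%. The stretch below is shown because Gsdma3 differs there from both: coding bases 595 to 654 of Gsdma3, in its exon 5, 5′ to 3′ on the plus strand, with capitals at the 14 positions at which Gsdma3 differs from both relatives.
Gsdma: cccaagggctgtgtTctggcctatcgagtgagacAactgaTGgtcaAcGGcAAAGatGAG
Gsdma2: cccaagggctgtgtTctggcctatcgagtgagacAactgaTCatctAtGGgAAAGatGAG
Gsdma3: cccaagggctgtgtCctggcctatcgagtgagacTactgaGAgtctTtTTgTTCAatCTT
They lie at chr11:98670790-98670849 in Gsdma, chr11:98652007-98652066 in Gsdma2 and chr11:98632380-98632439 in Gsdma3 (GRCm38). Of the 50-base windows of Gsdma3, 5.92% also occurred in another gene, and none of its 100-base windows did. The RefSeq promoter of Gsdma3, chr11:98626099-98626398 on the plus strand, is shown because the gene was at 0 in one strain; it has no capitals, since the Naip box is not in it.
Gsdma3 promoter: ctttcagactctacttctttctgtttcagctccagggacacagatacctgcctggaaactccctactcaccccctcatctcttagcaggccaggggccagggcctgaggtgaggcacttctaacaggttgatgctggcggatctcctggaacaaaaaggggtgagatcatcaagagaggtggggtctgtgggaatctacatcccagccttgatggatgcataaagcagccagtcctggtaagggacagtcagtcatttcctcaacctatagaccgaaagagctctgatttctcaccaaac
It held no match to TATAAA or ACTTCCT on either strand.

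The relatives were lower in level than Gsdma3 in CAST. Gsdma, which is expressed in skin and gut epithelium, had 159 counts (0.928 TPM) in B6 and 333 (1.25 TPM) in CAST, with a log2 ratio of 0.78 (interval 0.50 to 1.06). Gsdma2 had 1 and 18 counts, with a log2 ratio of 3.34 and an interval of 1.22 to 9.26. The 3 neighbouring copies thus all had more scaled counts in CAST, and only Gsdma3 was at 0 in B6. Further out, Ormdl3, a regulator of sphingolipid synthesis, was at 0.29 and Psmd3, a proteasome subunit, at -0.13, and Lrrc3c was listed at 0 in both. The predicted gene Gm12355, whose start is 699 bases from that of Gsdma3 on the opposite strand, had 4 counts in B6 against 1653 in CAST (log2 ratio 8.23, interval 7.04 to 10.28). Of its 50-base windows, 49.5% also occurred in the splicing factor gene Srsf3, which had 14489 and 19922 counts. Reads of such windows cannot be assigned to one of the 2 genes by sequence, and how far they entered the ratio of Gm12355 was not tested.

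The remaining gasdermins were mostly silent. Gsdmc, Gsdmc2, Gsdmc3, Gsdmcl1 and Gsdmcl2 were listed at 0 in both libraries, and Gsdmc4 had 2 counts in B6 and 5 in CAST. Gsdme, the gasdermin cut by caspase-3, was the exception: it had 293 counts (1.75 TPM) in B6 and 1414 (6.29 TPM) in CAST, with a log2 ratio of 1.98 (interval 1.80 to 2.17), 3.94-fold higher in CAST. Among the gasdermins that reached 100 counts, Gsdme and Gsdma3 were thus more than 2-fold higher in CAST, and Gsdmd and Gsdma were within 2-fold.

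**Figure D4:**
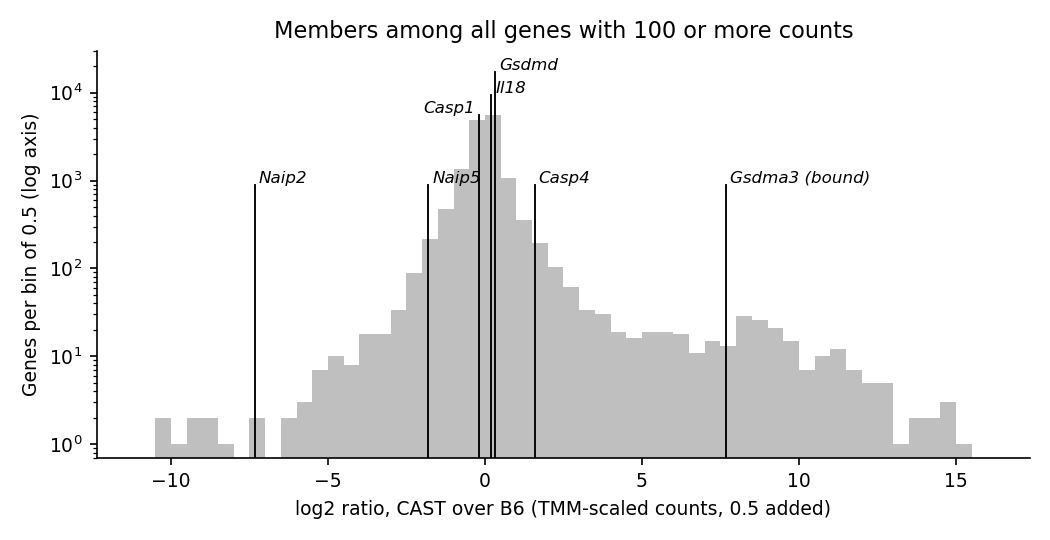
Number of genes (log axis) in bins of 0.5 of the log2 ratio of CAST over B6, for all 14768 genes that reached 100 counts, with vertical lines at the 7 described genes that have as many. Il18, Gsdmd and Casp1 lie in the central peak, and Naip2 at -7.33 and Gsdma3, drawn at its lower bound, lie in the tails.

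Related genes, among them other sensors, adaptors, caspases and gasdermins, were examined as a pathway list of 59, of which 58 were matched and 39 had at least 100 counts. Of the 39, CAST was higher by 2-fold or more in 4 and B6 in 6, and 29 were within 2-fold, which is beside 7.18% higher in CAST and 5.99% higher in B6 over all genes. Their median log2 ratio was -0.04, against 0.02 over all genes.

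Among other sensors, Nlrc3, an NLR protein that dampens T cell and innate responses, was higher in CAST with 89 and 223 counts (log2 ratio 1.03, interval 0.68 to 1.41). With total counts, which move the median of all genes to -0.14, its ratio was 0.87. The remaining 4 counted sensors were within 2-fold. The most abundant were Nod1, a sensor of bacterial cell wall, at 19.2 TPM in B6 and 13.5 in CAST, and the mitochondrial Nlrx1 at 2.33 and 1.77. Naip2 in B6 was thus at a level between those of these 2 sensors.

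Among adaptors and activators, 12 were counted. Tlr4, the surface receptor for lipopolysaccharide, was higher in CAST with 53 and 147 counts (log2 ratio 1.17, interval 0.72 to 1.66). Txnip, a glucose-induced inhibitor of thioredoxin, was the most abundant at 590 TPM in B6 and 208 in CAST, with a log2 ratio of -1.09, and the guanylate-binding protein gene Gbp7 was at -1.33, with 1034 and 501 counts. Nek7, the kinase that binds NLRP3, was at 27.6 and 16.3 TPM and within 2-fold.

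Of the 7 other caspases, Casp6 was at least 2-fold higher in B6, with 546 counts against 278 (log2 ratio -1.26). The most abundant, Casp2 and Casp8, were at 10.2 and 7.02 TPM in B6 and at 8.09 and 4.69 in CAST. Casp4 was thus the one inflammatory or apoptotic caspase examined that was at least 2-fold higher in CAST. Of the 6 caspase inhibitors and relatives of the NAIPs by their BIR domains that were counted, all were within 2-fold, Birc2 at 25.5 and 23.1 TPM and Birc6 at 21.6 and 14.2 being the most abundant.

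The interleukin-1 family held differences in both directions. Il1a, which encodes a cytokine active without caspase-1, had 183 counts in B6 against 785 in CAST (log2 ratio 1.81, interval 1.58 to 2.05). Il1b, the other main substrate of caspase-1, had 937 and 534 (log2 ratio -1.10, interval -1.26 to -0.95). Il1r2, a decoy receptor, had 236 and 54 (log2 ratio -2.41, interval -2.87 to -1.98), and Il18bp, which binds and blocks interleukin-18, had 444 and 218 (log2 ratio -1.31, interval -1.56 to -1.08). The interleukin-18 precursor itself differed by less than 2-fold while its blocker was higher in B6. The signalling receptor Il1r1 was at 110 TPM in B6 and 84.9 in CAST. Ninj1, which ruptures the membrane of dying cells, was the most abundant lysis gene at 70.3 and 53.9 TPM and within 2-fold.

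**Figure D5:**
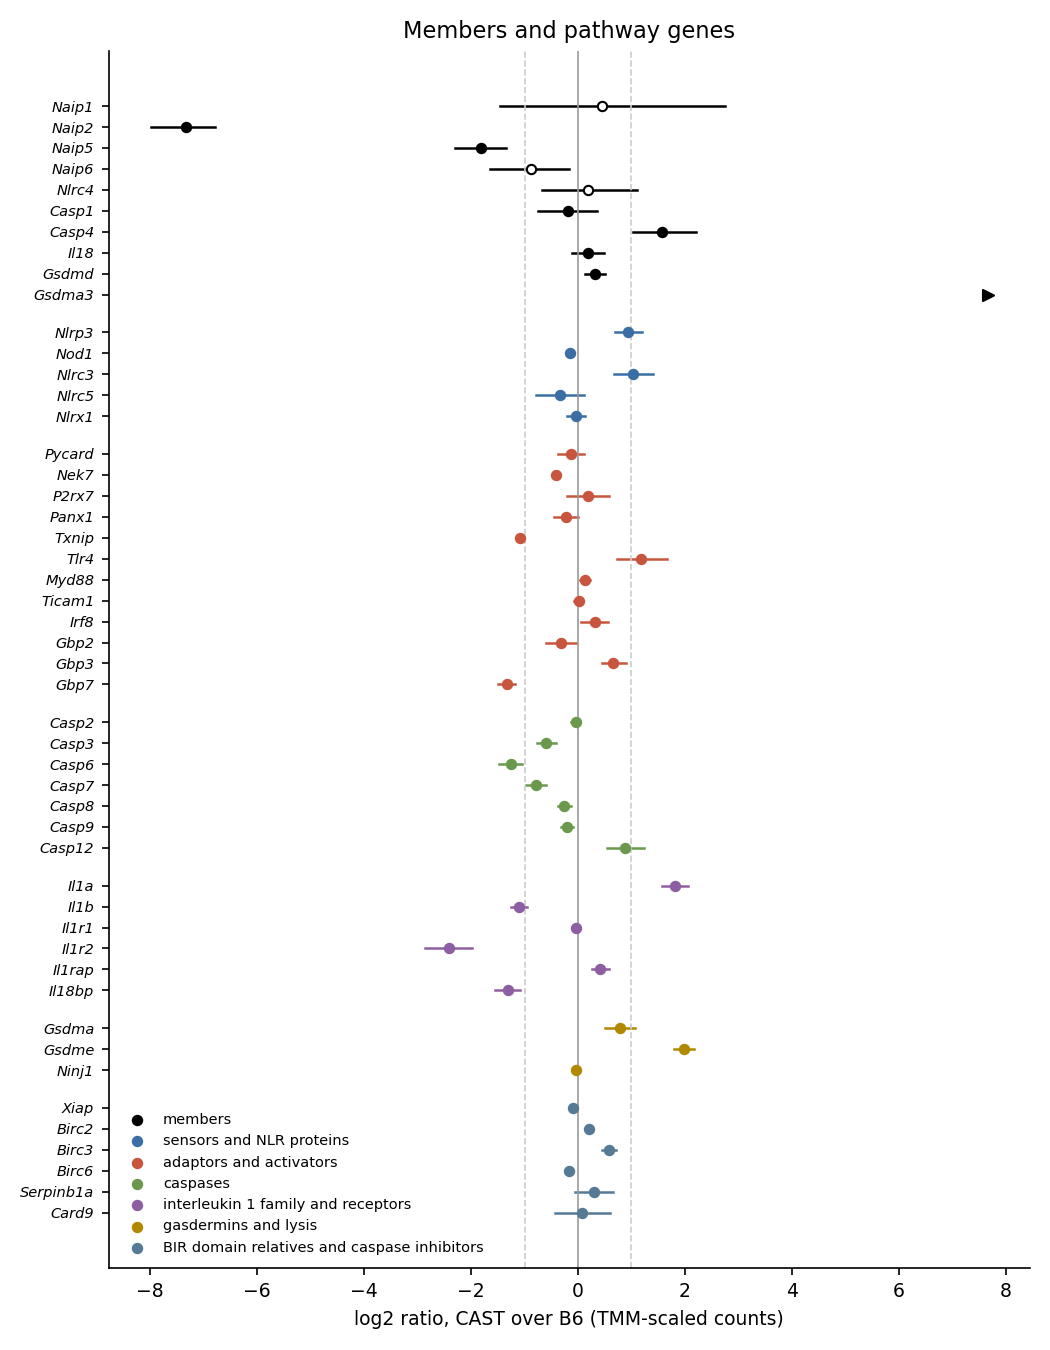
Log2 ratio of CAST over B6 with 95% counting intervals for the 10 genes (black, open where under 100 counts) and for the 39 counted genes of the pathway list, coloured by role; dashed lines mark 2-fold and the arrowhead a lower bound. Naip2 lies far to the left and Gsdma3 to the right, and 29 of the 39 listed genes lie between the dashed lines.

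The cells that could carry these genes were followed by their markers. Of 13 macrophage and monocyte markers, 12 had at least 100 counts and all 12 were within 2-fold, with a median log2 ratio of 0.27. Their summed level was 111 TPM in B6 and 102 in CAST, none was at 0, and the one gene under 100 counts, Mrc1, had 54 counts in B6 and 21 in CAST. Single markers went both ways: Adgre1, which encodes the macrophage antigen F4/80, had a log2 ratio of -0.77 (1.74 TPM in B6 and 0.804 in CAST), Lyz2, a lysozyme, -0.63 (11.7 and 5.93 TPM), and Csf1r, the receptor for a macrophage growth factor, 0.71 (3.26 and 4.17 TPM). The part of macrophage number or state in the Naip2 difference was not tested. Neutrophil markers summed to 4 counts in B6 and 7 in CAST, with 4 of 6 at 0 in each, and lymphocyte markers to 909 and 752. Acinar and fibroblast markers were higher in CAST, with median log2 ratios of 1.67 and 1.37, as were Gsdma3, Gsdme and Casp4. Of 7 counted duct and epithelium markers, 2 were at least 2-fold higher in CAST, beside 7.18% of all genes, and their median was 0.16. The 5 alpha and delta cell markers were within 2-fold, with a median of -0.79. The part of these cells in the differences of Gsdma3, Gsdme and Casp4 was not tested. In bulk RNA, fewer cells of a type and less RNA per cell cannot be told apart.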

How the data were processed

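Islet RNA of 1 library per strain was described. Per the submitters' processing notes, the authors quantified reads with RSEM on GRCm38; the aligner, versions, strand setting and annotation were not given in the sources used here. The first deposited value per transcript is the authors' expected count. The second was read as the deposited fraction of transcript molecules, since it sums to 1 in each file, and was rescaled to TPM. CAST reads were quantified on the B6-based reference, and the effect of strain variants on the counts was not tested.

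Expected counts of 94545 transcripts were summed per gene and rounded. GENCODE M21 gave symbols for 37607 of 38924 gene IDs. Log2 ratios are of counts scaled by TMM factors (edgeR 4.0.16, R 4.3.3) with 0.5 added. A gene at 0 in a library has no point ratio but a bound against a floor of 3 counts per library, and its counting interval is open-ended. The 95% Clopper-Pearson intervals and the floor describe counting error alone, because several reads can come from 1 molecule. Genes needed 100 counts over both libraries to be counted as 2-fold apart. DESeq2 1.42.0 size factors, total counts, TPM with a pseudocount of 1, other filters and thinning of CAST counts were alternatives. Near-identical copies had 95% identity over 200 bases and 50% of the shorter transcript (minimap2 2.31), and coding sequences were aligned with MAFFT 7.526. Other steps used Python 3.11.15, numpy 2.4.6, pandas 2.3.3, scipy 1.17.1 and matplotlib 3.10.9. The ratios were tested on simulated data that held counting error only, without shared reads, strain variants or spread between animals.

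The genes and lists were chosen with earlier results of these data known. Named were the 10 genes; pathway genes at least 2-fold apart and the 2 most abundant per subgroup; other Naip and gasdermin genes; the 3 nearest protein-coding genes on each side of the Naip cluster and of Gsdma3; and the 2 protein-coding genes on either side of Naip2 in the order of ratios. Of these, 1 gene is not reported here. Srsf3, Bco2 and the single macrophage, squamous, acinar and duct markers were named after their values were seen.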

Additional observations from a re-analysis of the deposited data

How the results depend on the processing

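DESeq2 size factors moved no ratio of the 10 genes beyond its counting interval. Of 63 alternative ratios of the 9 genes with counts in both libraries, 57 stayed within the interval. The 6 outside it were all on the TPM scale with 1 added (Naip2 -3.52, Naip5 -0.40, Naip6 -0.07, Casp4 0.58, Il18 -0.13, Gsdmd -0.02). Adding 1 shrinks the ratios of low genes. Il18 and Gsdmd, at 3.51 TPM or more in both libraries, changed sign instead, on a scale whose all-gene median is also lower. The median over all genes was 0.02 with TMM factors or size factors, -0.14 with total counts and -0.26 with TPM, and ratios are read against it. The lower bound for Gsdma3 was 182-fold with total counts. Genes at least 2-fold apart numbered 1 in each direction with TPM (all genes: 3.14% higher in CAST, 4.99% in B6) and 1 in each direction at 4-fold (3.43% and 1.34%). The Naip sum was at -3.39 with TPM, -1.45 without Naip2, -6.10 without Naip5 and -5.65 without Naip6. Pathway genes higher in CAST numbered 2 of 39 with TPM, 7 of 49 with a minimum of 20 counts (all genes: 9.15%) and 9 of 55 with no minimum (16.0%). Those higher in B6 numbered 6, 8 and 8 (all genes: 4.99%, 8.14% and 14.2%). The pathway median was -0.19 with total counts and -0.31 with TPM. The share of Casp4-201 in CAST was 71.1% by counts. Gm12355 summed with Srsf3, an alternative chosen after seeing the data, gave 0.28, a value set by the larger counts of Srsf3. At 20 to 41 counts per library, the counting intervals of Nlrc4 and Naip6 still hold a 2-fold difference. No paired analysis was possible because each strain has 1 library.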
